A study of Mus musculus with 4 samples.

Results

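The expression of MHC class I peptide loading genes was examined in mouse dendritic cells in which the nuclear receptor NR4A3 had been silenced. The 10 members were chosen by gene symbol, with earlier results of these data known. They comprise the class I light chain (B2m), 2 non-classical heavy chains (H2-T23 and H2-M3) and the peptide transporter (Tap1 and Tap2). The others are the loading and editing factors (Tapbp, Tapbpl and Pdia3), the trimming enzyme Erap1 and the transactivator Nlrc5. Of the 10 members, 9 were measured by a probe set that carries a single gene symbol, among 19938 named genes on the array. H2-T23 was not analysed, because its probe set also carries the symbol of another gene. All 9 measured genes passed the filter on dim genes in every comparison.

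Dendritic cells were grown from whole bone marrow in medium with 10% serum and GM-CSF at 20 ng/mL, the cytokine used to obtain this cell type from precursors. On day 10 an siRNA was introduced by nucleofection, a form of electroporation, either si-NR4A3, against the orphan nuclear receptor NR4A3, or the control siRNA si-Ctrl. LPS, a bacterial outer membrane molecule and TLR4 ligand, was added at 100 ng/mL 24 hours later, and the cells were harvested after a further 24 hours. The 4 conditions were si-NR4A3 with LPS, si-Ctrl with LPS, unstimulated si-NR4A3 and unstimulated si-Ctrl, each measured on 1 Affymetrix Mouse Gene 1.0 ST array. Cells of all 4 conditions received an siRNA. The labels disagree on the strain, since the protocol of growth has BALB/c mice and the characteristics list C57BL/6 for every sample. The sources used here do not say whether animals were pooled or how old they were.

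Levels are log2 values from RMA, a method that summarises the probes of a gene after background correction and quantile normalization. With 1 array a condition, a pairwise difference carries no p-value. Average effects of LPS and of silencing were tested in an additive fit over all 4 arrays (limma), whose residual is the difference of the 2 LPS effects plus array noise, and adjusted p-values are Benjamini-Hochberg values over the 10592 genes past the filter (at least 1 array at a log2 level of 6.66). The medians of the 4 arrays lay between 6.37 and 6.42. The targeted gene Nr4a3 stood at 9.39 in si-NR4A3 cells and 11.77 in si-Ctrl cells with LPS, and at 7.15 in si-NR4A3 cells and 11.21 in si-Ctrl cells without LPS, so that the labels of the siRNAs were borne out in both states. Of 8 defining dendritic cell markers 7 passed the filter, among them Itgax and the invariant chain gene Cd74, while Flt3 did not. All 9 macrophage markers and the 3 monocyte markers measured passed it as well. None of the 4 B cell, 5 T cell and 5 natural killer cell markers measured reached the filter on any array.

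MHC class I molecules show peptides from inside the cell to CD8 T cells and consist of a heavy chain, the light chain beta-2 microglobulin and a short peptide. Peptides made by the proteasome are pumped into the endoplasmic reticulum by the TAP transporter, trimmed by aminopeptidases and loaded onto class I in a complex held together by tapasin. In dendritic cells this pathway also serves cross-presentation, by which material taken up from outside is shown to CD8 T cells. Interferons and NLRC5 are known to raise many of its genes, and NLRC5 acts through a promoter module of X and Y boxes that class II genes also carry.

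Promoter letters are shown for members that rose with LPS (Tap1, H2-M3 and Erap1) and for members not past that test (B2m and Pdia3). RefSeq windows (GRCm38.p6) of 250 bases before and 50 bases after the start were found for 7 of the 10 members. Those of Tapbp, which also rose, and of H2-T23 are not printed. The stretches lie at chr2:122147437-122147686 (B2m), chr17:34187306-34187555 (Tap1), chr17:37269984-37270233 (H2-M3), chr13:74639759-74639858 (Erap1) and chr2:121413652-121413901 (Pdia3), all on the plus strand and written 5′ to 3′. They end at the base before the start, except that of Erap1, which ends 6 bases into the transcript. Capitals mark the interferon-stimulated response element core (GAAA, any 2 bases, GAAA), the gamma-activated site TTCNNNGAA, the CRE-type motif TGACG (as in the X2 box) and the Y box CCAAT, each on either strand.
B2m: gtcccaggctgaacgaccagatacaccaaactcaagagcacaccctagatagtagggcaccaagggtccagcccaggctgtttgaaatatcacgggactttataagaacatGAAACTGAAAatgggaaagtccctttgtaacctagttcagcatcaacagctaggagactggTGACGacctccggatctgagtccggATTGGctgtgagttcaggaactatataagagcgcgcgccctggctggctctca
Tap1: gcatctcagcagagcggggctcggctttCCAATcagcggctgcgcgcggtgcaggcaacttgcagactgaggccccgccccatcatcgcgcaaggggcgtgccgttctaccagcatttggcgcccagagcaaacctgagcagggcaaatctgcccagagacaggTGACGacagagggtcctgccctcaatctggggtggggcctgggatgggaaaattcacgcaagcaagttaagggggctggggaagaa
H2-M3: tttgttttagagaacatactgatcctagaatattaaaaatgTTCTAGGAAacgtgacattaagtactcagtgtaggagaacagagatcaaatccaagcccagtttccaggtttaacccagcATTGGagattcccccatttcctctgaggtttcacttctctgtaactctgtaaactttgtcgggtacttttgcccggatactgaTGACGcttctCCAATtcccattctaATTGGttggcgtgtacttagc
Erap1: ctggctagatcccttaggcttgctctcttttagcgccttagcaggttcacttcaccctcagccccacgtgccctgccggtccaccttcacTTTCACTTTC
Pdia3: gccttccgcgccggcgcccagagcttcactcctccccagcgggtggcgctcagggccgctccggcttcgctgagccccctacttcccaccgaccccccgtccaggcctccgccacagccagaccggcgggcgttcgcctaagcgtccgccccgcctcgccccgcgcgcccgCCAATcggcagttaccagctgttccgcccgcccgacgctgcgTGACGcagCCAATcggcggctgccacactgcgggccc

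The B2m promoter held the response element core at -139 to -130, the CRE-type motif at -78 to -74 and the Y box, on the minus strand, at -53 to -49. The Erap1 window held the same core on the minus strand, from -4 to 6 across the start. The H2-M3 window held a gamma-activated site at -209 to -201 and, closer to the start, the CRE-type motif at -46 to -42 followed by a Y box at -36 to -32 and another on the minus strand at -21 to -17. In the Tap1 window the CRE-type motif lay at -86 to -82 and the Y box at -222 to -218. The unprinted Tapbp window held Y boxes on the minus strand at -248 to -244 and -165 to -161. No CRE-type motif was found in the windows of Tapbp and H2-T23. Pdia3, whose LPS effect was near 0, held the CRE-type motif at -37 to -33 and Y boxes at -79 to -75 and -29 to -25. Over the 7 windows, the response element core was found in 3 (B2m, Erap1 and H2-T23), against 3.44% of 32851 promoters. Of these 3, only Erap1 rose with LPS in the additive fit, B2m was not past that test and H2-T23 was not analysed. The windows of Tap1, Tapbp and H2-M3, which also rose, held no such core. The Y box was found in 6 against 37.4%, the CRE-type motif in 4 against 20.8% and the gamma-activated site in 1 against 8.3%. A broad kappaB-like pattern (GGG, any 5 bases, CC) was found in 4 against 50.8%; in H2-M3 a match overlaps the further Y box at -129 to -125. The site AAAGGTCA, known to be bound by NR4A receptors, was in none of the 7 windows and in 1.51% of all promoters. Among the 10893 promoters of genes past the filter the shares were 3.16% for the response element core, 36.9% for the Y box, 31.2% for the CRE-type motif, 6.8% for the gamma-activated site, 67.5% for the kappaB-like pattern and 0.9% for AAAGGTCA. These are matches of letters and do not show binding.

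LPS was set against no stimulation under each siRNA to describe the activation response of the loading genes. Transporter, tapasin, tapasin-related, trimming and H2-M3 transcripts were all higher with LPS under both siRNAs, whereas B2m and Pdia3 differed little. At 1.5-fold, 6 of 9 members were higher with LPS under si-NR4A3, where 10.3% of 10353 genes were, and the same 6 of 9 under si-Ctrl, where 10.2% of 10346 genes were. None was 1.5-fold lower, against 6.88% and 9.44% of all genes. The difference was above 0 for 9 of 9 members under si-NR4A3 (52.4% of genes) and for 8 of 9 under si-Ctrl (48.3% of genes), and Pdia3 was below 0 under both siRNAs when quantile normalization was repeated over the named genes (-0.11 and -0.27). The median difference of the members was 1.14 under si-NR4A3 and 1.07 under si-Ctrl, beside 0.02 and -0.02 over all genes tested. In the additive fit 7 of 9 members rose with LPS (15.6% of genes rose) and 0 fell (14.4% of genes fell).

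**Figure D1:**
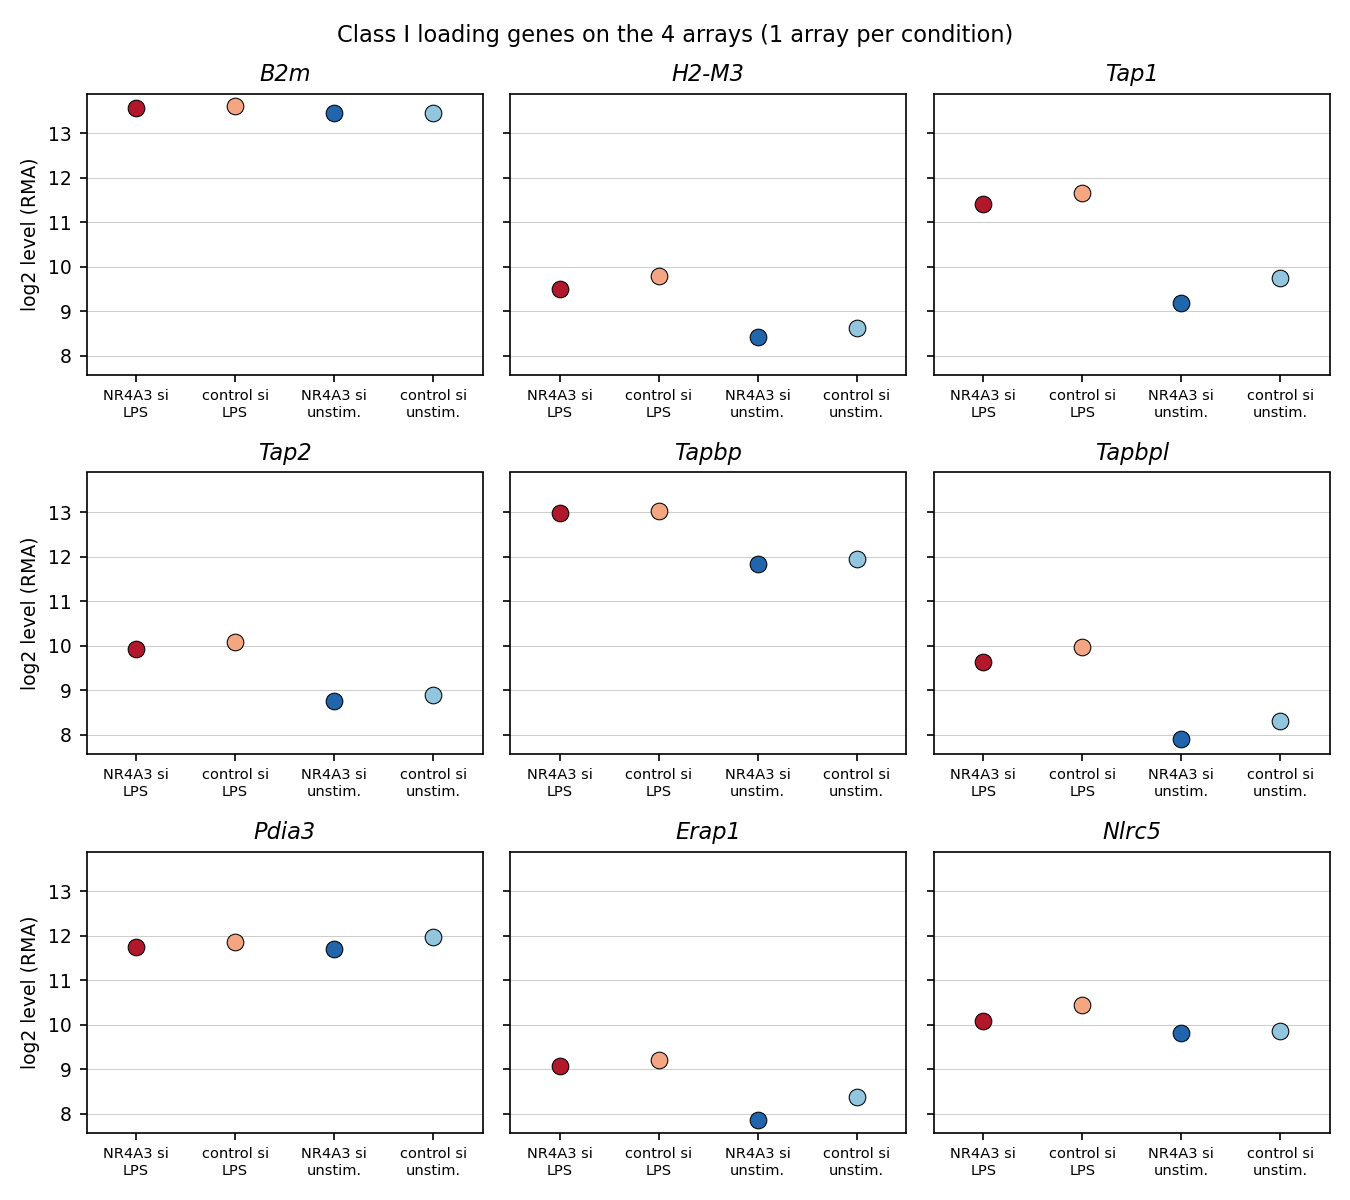
Log2 levels (RMA, y axis) of the 9 measured members on each array, with 1 point per condition and 1 array each. Levels of Tap1, Tap2, Tapbp, Tapbpl, Erap1 and H2-M3 are higher on both LPS arrays than on both unstimulated arrays, and B2m and Pdia3 stay nearly level. Levels of different genes are not comparable, since they come from different probes.

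Tap1, the transporter subunit that pairs with Tap2, had the widest difference. Its log2 level was 11.41 with LPS and 9.17 without under si-NR4A3, and 11.66 with LPS and 9.75 without under si-Ctrl. The folds were 4.7 and 3.75, above those of 98.5% and 98.2% of the genes tested. Averaged over both siRNAs, Tap1 rose by 2.07 ± 0.12 (log2, SE, 4 arrays; limma adjusted p = 0.000197). Tap2, the other subunit of the transporter, stood at 9.92 with LPS and 8.75 without under si-NR4A3, and at 10.07 with LPS and 8.89 without under si-Ctrl. Both Tap2 differences, 1.17 and 1.19, were smaller than those of Tap1, and its average rise was 1.18 ± 0.10 (adjusted p = 0.000637).

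Tapbpl encodes the tapasin-related peptide editor TAPBPR and was the member with the next widest difference. Its level was 9.62 with LPS and 7.90 without under si-NR4A3, and 9.97 with LPS and 8.31 without under si-Ctrl, which gave folds of 3.31 and 3.16. Its average rise was 1.69 ± 0.10 (adjusted p = 0.000202). Tapbp, tapasin itself, stood at 12.98 with LPS and 11.84 without under si-NR4A3, and at 13.03 with LPS and 11.96 without under si-Ctrl, with folds of 2.21 and 2.11 and an average rise of 1.11 ± 0.10 (adjusted p = 0.000808). Pdia3 (ERp57), the thiol oxidoreductase that forms a disulfide with tapasin, did not share this difference. Its levels were 11.74 with LPS and 11.71 without under si-NR4A3, and 11.86 with LPS and 11.97 without under si-Ctrl. The average LPS effect on Pdia3 was -0.04 (95% interval -0.28 to 0.21, adjusted p = 0.824).

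Erap1, the endoplasmic reticulum aminopeptidase that trims peptides to class I length, stood at 9.06 with LPS and 7.86 without under si-NR4A3, and at 9.20 with LPS and 8.37 without under si-Ctrl. Its average rise was 1.02 ± 0.12 (adjusted p = 0.00271), with a fold of 2.31 under si-NR4A3 and 1.78 under si-Ctrl. H2-M3, a non-classical heavy chain that presents N-formylated peptides of bacteria, was measured at 9.51 with LPS and 8.41 without under si-NR4A3, and at 9.79 with LPS and 8.63 without under si-Ctrl. Its average rise was 1.13 ± 0.10 (adjusted p = 0.000765). B2m, the light chain of class I molecules, stood at 13.57 with LPS and 13.46 without under si-NR4A3, and at 13.61 with LPS and 13.46 without under si-Ctrl. The average LPS effect on B2m was 0.13 (95% interval -0.11 to 0.37, adjusted p = 0.35). B2m lay 0.64 to 0.82 below the highest value of each array, the least room of all 9 members, and whether differences are compressed at that level was not tested.

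**Figure D2:**
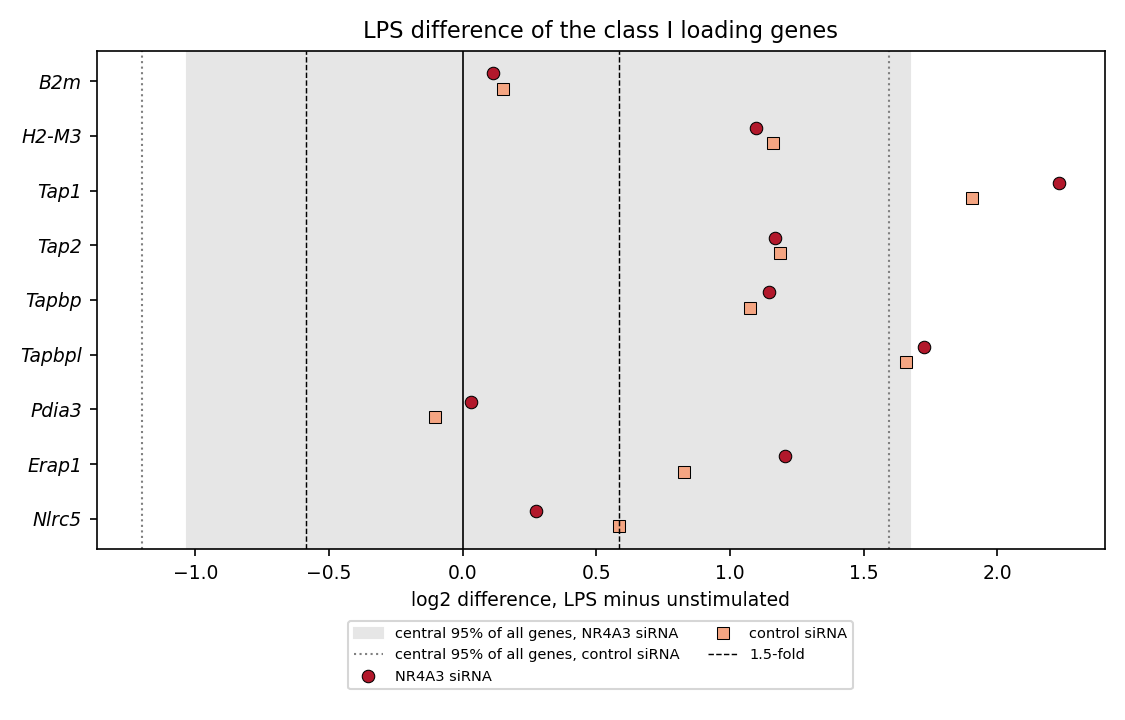
Log2 difference between LPS-treated and unstimulated cells (x axis) for each member under NR4A3 siRNA (circles) and control siRNA (squares), with the 1.5-fold lines dashed. The grey band (NR4A3 siRNA) and the dotted lines (control siRNA) hold the central 95% of all genes tested, from -1.03 to 1.67 and from -1.20 to 1.59; Tap1 and Tapbpl lie beyond them on the right.

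By the shape of the 4-array profile, Tap2, Tapbp and H2-M3 were nearly superimposable. After each profile was centred on its mean, the root mean square distance was 0.05 between Tap2 and Tapbp and 0.06 between Tap2 and H2-M3, in log2 units. Tap1 and Tap2, whose products form 1 transporter, were 0.47 apart, because the Tap1 difference with LPS was wider. Among 10223 genes that are no members, those nearest to Tap1 were Cflar (0.07), the interferon signal transducer Stat2 (0.08), the non-classical class I gene H2-Q4 (0.10), Rnf213 (0.11), the cytosolic RNA sensor gene Dhx58 (0.12), Mtmr7 (0.12), the cytokine gene Il1b (0.12) and Ifi35 (0.12). The median distance to Tap1 over these genes was 1.07. This likeness rests on 4 arrays.

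Nlrc5 encodes the transactivator of class I genes and is represented by 19 single-symbol probe sets, which did not give 1 answer. The brightest of them, used above, stood at 10.09 with LPS and 9.81 without under si-NR4A3, and at 10.45 with LPS and 9.87 without under si-Ctrl. By this probe set the Nlrc5 rise with LPS was 0.43 ± 0.12 (adjusted p = 0.0396), and its fold stayed under 1.5 with either siRNA, only just so under si-Ctrl. All 19 probe sets were higher with LPS under both siRNAs, but the size ran from 0.15 to 1.74 under si-NR4A3 and from 0.37 to 1.57 under si-Ctrl. The median difference was 0.95 (1.93-fold) under si-NR4A3 and 1.08 (2.11-fold) under si-Ctrl. At 1.5-fold, 14 of 19 were higher under si-NR4A3 and 16 of 19 under si-Ctrl. The second brightest probe set stood at 9.77 with LPS and 8.47 without under si-NR4A3, and at 10.25 with LPS and 8.69 without under si-Ctrl, which are folds of 2.46 and 2.96. Probe sets of 1 gene share their RNA and are no replicates. With the mean of the probe sets the average Nlrc5 rise was 0.95 (adjusted p = 0.00088), more than 1.5 times the value from the brightest. The adjusted p from the brightest probe set was 0.082 with quantile normalization repeated over the named genes, 0.066 with cyclic loess and 0.0656 with no filter on dim genes. The 5 genes nearest to the profile of the brightest probe set were Bcam (0.017), Noxo1 (0.018), Letm2 (0.021), Itm2c (0.023) and Gmeb2 (0.031). None of them is a gene of the class I lists. The median distance to that profile over the 10223 genes was 0.31, against 1.07 for Tap1.

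**Figure D3:**
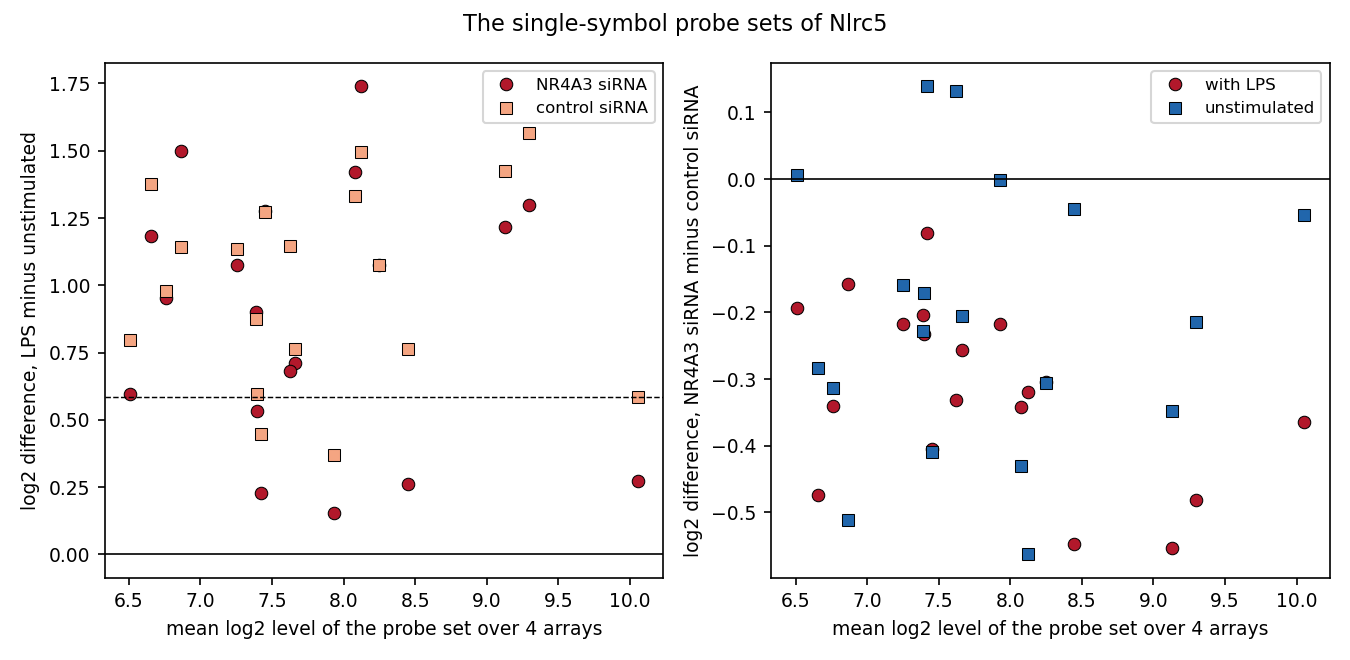
Each of the 19 single-symbol probe sets of Nlrc5 by its mean log2 level (x axis). Left, LPS minus unstimulated under NR4A3 siRNA (circles) and control siRNA (squares), with the 1.5-fold line dashed; right, NR4A3 siRNA minus control siRNA with LPS (circles) and unstimulated (squares). All points on the left are above 0, with the brightest probe set at 0.27 and 0.585, and all 19 circles on the right are below 0.

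The siRNAs were compared within each state to describe how the loading genes differed with NR4A3 silenced, its transcript being lowered but not absent. The differences were small and mostly towards lower levels with si-NR4A3. With LPS, all 9 members were lower in si-NR4A3 cells than in si-Ctrl cells, where 41.8% of 10210 genes were lower. Without LPS, 8 of 9 were lower, where 46.2% of 10257 genes were, and the same 8 were lower in both states, against 29.4% of 9875 genes. The exception was B2m, which was also lower without LPS (9 of 9) after repeated quantile normalization or cyclic loess. None reached 1.5-fold lower in either state, against 4.73% of genes with LPS and 4.69% without, and none reached 1.5-fold higher, against 3.73% and 1.62%. The median difference of the members was -0.16 with LPS and -0.21 without, beside 0.05 and 0.02 over all genes. These differences were not past the test: in the additive fit 0 of 9 members fell (3.58% of genes fell) and 0 rose (1.98% of genes rose) with silencing, and 4 of 9 had an unadjusted p under 0.05, as had 26.2% of all genes.

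**Figure D4:**
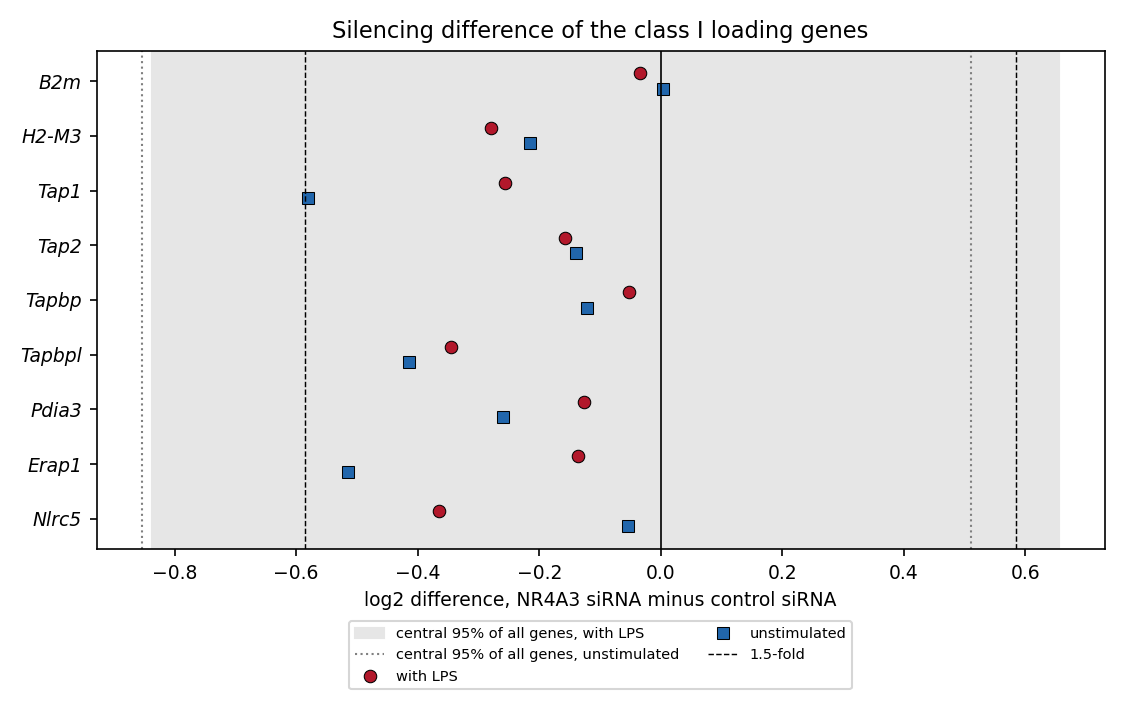
Log2 difference between NR4A3 siRNA and control siRNA (x axis) for each member with LPS (circles) and unstimulated (squares), with the 1.5-fold lines dashed. The grey band (with LPS) and the dotted lines (unstimulated) hold the central 95% of all genes tested, from -0.84 to 0.66 and from -0.85 to 0.51, and every member lies inside them.

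Tap1 had the widest silencing difference among the unstimulated values. It was at 11.41 in si-NR4A3 cells and 11.66 in si-Ctrl cells with LPS, a difference of -0.26, and at 9.17 in si-NR4A3 cells and 9.75 in si-Ctrl cells without LPS, a difference of -0.58 that lay just inside the 1.5-fold line. Averaged over both states the Tap1 difference was -0.42 (95% interval -0.71 to -0.13, adjusted p = 0.097). Tapbpl had an average difference of -0.38 (95% interval -0.62 to -0.14, adjusted p = 0.0828), made up of -0.35 with LPS and -0.41 without. Erap1 was at -0.14 with LPS and -0.51 without, with an average of -0.325 (95% interval -0.63 to -0.02, adjusted p = 0.171). H2-M3 was at -0.28 with LPS and -0.21 without, with an average of -0.25 (adjusted p = 0.18). The intervals are not adjusted for the number of genes.

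The averages of the other members lay closer to 0. Tap2 differed by -0.16 with LPS and by -0.14 without between si-NR4A3 and si-Ctrl cells, with adjusted p = 0.379 for the average. Pdia3 differed by -0.13 with LPS and by -0.26 without (adjusted p = 0.283). Tapbp differed by -0.05 with LPS and by -0.12 without (adjusted p = 0.612). B2m differed by -0.04 with LPS and by 0.003 without, and its average of -0.02 had a 95% interval of -0.25 to 0.22 (adjusted p = 0.937). The brightest Nlrc5 probe set differed by -0.365 with LPS, the widest value of the 9 members in that state, and by -0.05 without (adjusted p = 0.31 for the average). Of the 19 probe sets of Nlrc5, 19 were lower in si-NR4A3 cells with LPS, with a median of -0.32, and 16 were lower without LPS, with a median of -0.21. None of them reached 1.5-fold in either state.

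Macrophage marker genes differed between the siRNAs as well. All 9 listed markers passed the filter, and 4 of them rose with silencing in the additive fit, namely Mrc1 (0.63, adjusted p = 0.0299), C1qa (1.06, adjusted p = 0.0107), C1qb (1.61, adjusted p = 0.0178) and C1qc (1.52, adjusted p = 0.012), while 0 fell. Over all genes 1.98% rose and 3.58% fell with silencing. The summed log2 level of the 9 was 94.0 in si-NR4A3 cells and 87.0 in si-Ctrl cells with LPS, and 99.2 in si-NR4A3 cells and 94.2 in si-Ctrl cells without LPS. With LPS, 2 of these markers rose (Adgre1 and Fcgr1) and 5 fell, where 15.6% of all genes rose and 14.4% fell. Of 3 monocyte markers measured, Plac8 rose with LPS and Ccr2 and F13a1 fell, and the only 2 of 4 plasmacytoid dendritic cell markers past the filter, Bst2 and Tcf4, rose. Of 6 neutrophil markers 1 passed the filter, S100a8, which was 1.58-fold higher in si-NR4A3 cells than in si-Ctrl cells with LPS. Of the dendritic cell markers, Itgax fell with LPS (-0.39, adjusted p = 0.0358), and Zbtb46 was 1.56-fold lower in si-NR4A3 cells than in si-Ctrl cells with LPS. The part of these cells in the differences of the loading genes was not tested. In RNA of a whole culture, fewer cells of a type and less RNA per cell cannot be told apart.

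Whether the LPS difference itself depended on silencing could be described but not tested, since the 4 arrays leave no residual for it. The same value is also the silencing difference with LPS minus that without. It was 0.38 for Erap1 and 0.32 for Tap1, whose LPS differences were wider under si-NR4A3, and -0.31 for the brightest Nlrc5 probe set, whose LPS difference was narrower. Tap2 (-0.02), B2m (-0.04), H2-M3 (-0.06), Tapbpl (0.07), Tapbp (0.07) and Pdia3 (0.13) lay closer to 0. Over all genes past the filter the central 95% ran from -0.53 to 0.61 with a median of 0.05, and all 9 members lay inside it. For Nlrc5 this value ran from -0.50 to 0.36 over its 19 probe sets, with a median of -0.06, and 13 of them were below 0. The value of -0.31 thus belongs to the brightest probe set and not to the 19 together. Nr4a3 itself was 5.21-fold lower in si-NR4A3 cells with LPS and 16.6-fold lower without. The part of this unequal silencing in the values of the members was not tested.

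Other steps of the class I pathway were followed in gene lists. Over all genes 15.6% rose and 14.4% fell with LPS in the additive fit. Of 7 immunoproteasome and proteasome activator genes, 5 rose and 0 fell. They include the immunoproteasome subunit genes Psmb9 (1.58, adjusted p = 0.000263), Psmb8 (1.35, adjusted p = 0.00183) and Psmb10 (1.35, adjusted p = 0.000472) and the activator gene Psme2 (1.51, adjusted p = 0.00029). Of 20 other class I and class I-like heavy chain genes, 11 were measured and 7 passed the filter, of which 6 rose and 0 fell. H2-Q4 rose by 2.27, H2-T24 by 1.84, the lipid-presenting Cd1d1 by 1.83 and H2-T10 by 1.77, with adjusted p-values of 0.000197, 0.000154, 0.00042 and 0.000171. H2-Q and H2-T genes have near-identical copies that could share probes, so their values are uncertain. The classical genes H2-K1 and H2-D1 were not analysed here.

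Of 15 genes of general folding and quality control in the endoplasmic reticulum, 1 rose with LPS (Edem1, 0.38, adjusted p = 0.0447) and 1 fell (Uggt1, -0.93, adjusted p = 0.00358), while 13 were not past the test; over all genes 15.6% rose and 14.4% fell. Uggt1 encodes the glucosyltransferase that returns misfolded glycoproteins to the calnexin cycle. The loading complex chaperone calreticulin and the related chaperone calnexin were singled out after their values were seen. Their average LPS effects were -0.05 (Calr, adjusted p = 0.712) and -0.09 (Canx, adjusted p = 0.561), near that of Pdia3. Among 8 other peptidases that trim or destroy class I ligands, 0 rose and 2 fell, Tpp2 by 0.365 (adjusted p = 0.0386) and Dpp9 by 0.368 (adjusted p = 0.0364). Lap3 and Ide had average LPS effects of 0.18 and 0.16 (adjusted p = 0.223 and 0.273).

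**Figure D5:**
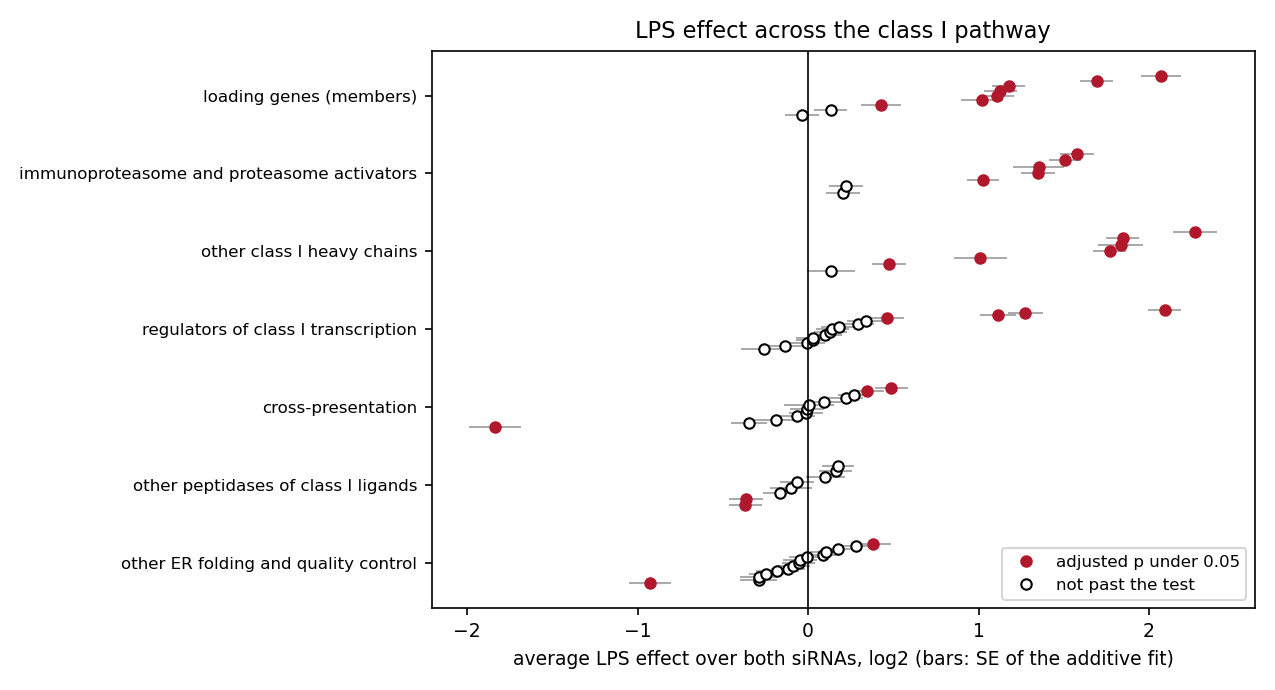
Average LPS effect over both siRNAs (log2, x axis) for each gene past the filter in 7 groups of the class I pathway, with bars for the SE of the additive fit. Filled points passed the test at an adjusted p under 0.05. The 5 filled points of the proteasome group and 6 of the heavy chains lie to the right of 0, and 13 of 15 folding genes are open.

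Among 15 measured regulators of class I transcription, 4 rose with LPS and 0 fell, where 15.6% of all genes rose and 14.4% fell. Stat2 rose by 2.09 (adjusted p = 0.000106), Irf8 by 1.27 (adjusted p = 0.000639), Irf1 by 1.12 (adjusted p = 0.00114) and the X box factor gene Rfx5 by 0.46 (adjusted p = 0.0173). With silencing, 2 of these 15 genes fell (3.58% of all genes) and 0 rose. In the other 5 pathway lists none passed this test, and no test compared the lists. At 1.5-fold, where single arrays are compared, H2-M2 (1.82-fold), H2-Q4 (1.54-fold) and Rab27a (1.57-fold) were lower with si-NR4A3 without LPS. Over all genes tested, 4.69% were lower there. Clec9a (1.72-fold) and Wdfy4 (1.54-fold) were higher with si-NR4A3 under LPS, as were 3.73% of all genes. Wdfy4 has 2 single-symbol probe sets, of which the brighter was used. Irf8, an interferon regulatory factor of dendritic cells, fell by 1.102 on average with si-NR4A3 (adjusted p = 0.0107), with levels of 12.18 in si-NR4A3 cells and 13.38 in si-Ctrl cells with LPS, and of 11.01 in si-NR4A3 cells and 12.01 in si-Ctrl cells without LPS. Ezh2, the histone methyltransferase that silences genes by H3K27 methylation, fell by 0.77 (adjusted p = 0.0229). In the cross-presentation list, 12 of 13 genes passed the filter, of which 2 rose with LPS, 1 fell and 9 were not past the test. Over all genes 15.6% rose and 14.4% fell. The dead-cell receptor gene Clec9a fell with LPS by 1.83 (adjusted p = 0.000679), and the endosomal SNARE gene Vamp8 rose by 0.49 (adjusted p = 0.0153), as did the NADPH oxidase subunit gene Ncf1 by 0.35 (adjusted p = 0.044). Wdfy4, which is needed for cross-presentation by type 1 dendritic cells in mice, was at 0.52 between the siRNAs on average (adjusted p = 0.051), higher in si-NR4A3 cells.

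The places of the members in the genome were looked up as well. In RefSeq, 5 of the 10 lie on chromosome 17 (Tap1, Tap2, Tapbp, H2-T23 and H2-M3), 2 on chromosome 2 (B2m and Pdia3), and Tapbpl, Nlrc5 and Erap1 on chromosomes 6, 8 and 13. Along chromosome 17 the protein-coding genes Psmb9, Tap1, Psmb8, Tap2 and H2-Ob follow each other, and all 5 rose with LPS. H2-Ob encodes a chain of the class II editor H2-O and rose by 1.09 (adjusted p = 0.000842). Of 10 neighbours of members that passed the filter, 5 rose and 3 fell, where 15.6% of all genes rose and 14.4% fell. Those that rose include Psmb8, Psmb9 and H2-T24, which the pathway lists above already hold. Those that fell were Rgl2 beside Tapbp (-0.54, adjusted p = 0.0139), Cast beside Erap1 (-0.48, adjusted p = 0.0157) and Herpud1 beside Nlrc5 (-0.51, adjusted p = 0.0126). Zbtb22, on the other side of Tapbp, was at 0.06 (adjusted p = 0.693). The neighbours of B2m and Pdia3 did not reach the filter.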

How the data were processed

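Total RNA of 4 conditions was hybridised to 1 array each. The authors deposited log2 values that the labels describe as RMA16 with quantile normalization. Affymetrix Expression Console 1.1 is named in the submitters' processing notes and GeneSpring in the design text. For the build and for any earlier filter: not given in the sources used here. Of 28856 probe sets, 21789 had 1 gene symbol (platform annotation), 1621 carried more than 1 and 5446 were unnamed here, and only the first kind was used. A gene was taken at its brightest single-symbol probe set by mean level. Pairwise differences were counted at 1.5-fold where the brighter array reached 6.66, the median of the named genes. The additive fit (R 4.3.3, limma 3.58.1, lmFit and eBayes, 3 coefficients, 1 residual and 4.76 prior degrees of freedom) was run on simulated data. These held equal noise for all genes and an LPS effect equal under both siRNAs, so other cases were not covered. No label says that arrays came from separate cultures, and no condition has more than 1 array. The p-values therefore measure no spread between replicates. They rest on the gap between the LPS effects under si-NR4A3 and si-Ctrl, which may be technical, and on a prior variance taken over all genes past the filter. Quantile normalization hides a shift of most genes in 1 direction. The members and lists were chosen with earlier results of these data known. Named were all members, Nr4a3, up to 4 genes of each list with the largest average effects, and the nearest profiles to Tap1 and Nlrc5; Rfx5, Ncf1, H2-M2, Calr, Canx, the neighbours of members and the markers were named after their values were seen. Alternatives covered scaling, fold, filter, probe sets and the prior variance.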

Additional observations from a re-analysis of the deposited data

Results flagged for a closer look

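Pdia3 had LPS differences of opposite sign, 0.03 under si-NR4A3 and -0.10 under si-Ctrl, and the gap of 0.133 between them was not tested. B2m had silencing differences of opposite sign, -0.04 with LPS and 0.003 without, and the gap of -0.038 was not tested either. B2m was below 0 in both states, and Pdia3 under both siRNAs, after repeated quantile normalization. Both gaps lie inside the central 95% of all genes past the filter.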

How the results depend on the processing

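No paired analysis was possible because each condition has 1 array, and no array could be left out, since the fit would keep no residual. The counts of members past the set fold with LPS ran from 6 to 7 under si-NR4A3 and from 5 to 7 under si-Ctrl over 8 alternatives each, 2 of which change the fold itself (the 5 is the count at 2-fold), and those past the test for the average LPS effect from 6 to 7 over 8. Members lower with si-NR4A3 by the set fold were 0 of 9 in both states. At a log2 threshold of 0.32 they came to 2 of 9 with LPS (Tapbpl and Nlrc5), beside 1067 of 10210 genes. Without LPS they came to 3 of 9 (Tap1, Tapbpl and Erap1), beside 1115 of 10257 genes. At that threshold 2079 genes were higher and 1670 lower with LPS under si-NR4A3, 1910 and 2004 under si-Ctrl, and 1657 were higher with si-NR4A3 under LPS and 875 without. Under cyclic loess 1 of 9 members, Tap1 at -0.60, was 1.5-fold lower with si-NR4A3 without LPS, where 501 of 10191 genes were. Over all 8 alternatives 0 members passed the test for silencing. At 2-fold the counts over all genes were 550 higher and 281 lower with LPS under si-NR4A3, 517 and 396 under si-Ctrl, and 48 higher and 171 lower with si-NR4A3 under LPS, 21 and 176 without. Genes past the test for silencing ran from 24 to 322 higher (210 in the main setting) and from 132 to 467 lower (379), the lowest counts with no filter on dim genes; repeated quantile normalization gave 109 higher, and cyclic loess 50 higher and 216 lower. The filter at the 75th percentile tested 5761 genes in the fit, against 10592, and left 988 falling with LPS, against 1524. With it, 441 and 579 genes were lower with LPS under si-NR4A3 and si-Ctrl, 230 were higher with si-NR4A3 under LPS, and 92 higher and 274 lower without. Of the members, Nlrc5 alone has several probe sets, and their choice moved it from an average LPS effect of 0.43 to 0.95 with their mean and 0.85 with their median, the median having been added after the values were seen. Over 8 alternatives the average LPS effect of the other 6 members that rose stayed past the test, at adjusted p up to 0.00914 (Erap1). The cause of these changes was not tested. Precision is limited by having 4 arrays.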
